A study of Mus musculus with 20 samples.

Results

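The genes described here are 9 members of the complement system measured in whole epididymal fat pads of obese mice: Cfp (properdin), Cfb (factor B), Cfi (factor I), C4b (component C4), the 3 chains C1qa, C1qb and C1qc of the recognition protein C1q, and the receptors C3ar1 and C5ar1. They were chosen by symbol from the array annotation, and each was read by 1 probe set, so that 9 of 19505 named genes are covered and none was lost to a filter. Cfp was put on the list, with genes of its pathway, because earlier results on these arrays placed it among the genes with the smallest p for genotype, so the genotype differences of the 9 genes are given as a description and without a test.

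Each of the 20 arrays held RNA from the fat pad of 1 male C57BL/6 mouse of 28 weeks. All mice were homozygous for the floxed Tnf gene (TNF-αFlox/FLox), which encodes the inflammatory cytokine TNF-α. The 10 cre mice were LyzMcre+/-, with 1 copy of a Cre recombinase driven from the Lyz2 locus of myeloid cells, so that deletion is directed to macrophages but also to neutrophils and monocytes, and the other cells of the fat pad keep Tnf. Their 10 littermates without Cre, LyzMcre-/-, are called wt. All cre mice and no wt mice carry Cre at the Lyz2 locus, so its presence and the deletion of Tnf cannot be told apart. Chow was eaten until 10 weeks of age and a purified high-fat diet, with 40% of calories from fat, for the following 18 weeks, and the arrays were run in 2 batches with 5 mice of each genotype in both. Replicates are mice, and their number limits the precision of every value.

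Complement is a cascade of plasma proteins that marks and opens cells and calls in leukocytes. C1q starts the classical pathway on antibody or damaged cells, C4 is cleaved to build its convertase, factor B supplies the protease of the alternative convertase, properdin holds that convertase together, and factor I cuts the deposited fragments and so ends it. The small fragments released act on the receptors for C3a and C5a on leukocytes. Most circulating components are made in liver, while C1q and properdin are made mainly by myeloid cells, and adipocytes are a known source of alternative pathway proteins.

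The 9 genes fell into sets that varied together over the mice. The C1q chains and both anaphylatoxin receptors rose with Adgre1, a surface marker gene of mouse macrophages, in a slope test with genotype and batch in the model. In slopes run after the values had been seen, Cfb rose with adipocyte genes, and Cfi rose with liver genes over all 20 mice but not past the test in batch 1 alone or without 5 mice set apart by other tissues. Cfp had a shallow slope on Adgre1 that did not pass the test, and its log2 difference between genotypes, −0.83, was −0.77 when Adgre1 was held equal.

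Before these values, the arrays themselves need a few words. Array medians lay between 6.49 and 6.58, and arrays correlated with each other at 0.934 to 0.989. Some fat pads carried transcripts of other tissues. The mean of 13 liver genes ran from 5.96 to 13.9 over the wt mice and from 7.03 to 11.9 over the cre mice, and wt replicate 6 had a mean of 16.9 for 8 seminal vesicle genes against at most 5.70 in any other wt mouse. Lists of 7 other tissues set 5 mice apart, namely wt replicates 4 and 6 and cre replicates 2, 3 and 9, each more than 1 log2 unit above all other mice of its genotype for some list. Mice with much liver RNA but no such gap were not set apart, among them cre replicates 4 and 10, with liver means of 11.9 and 11.8. Leaving out the 5 mice therefore does not remove all other-tissue RNA. The adipocyte list mean, over 10 measured genes, was 14.5 and 15.2 in wt replicates 6 and 5 and 16.1 to 17.2 in the other 18 mice. Tnf differed by −1.99 between genotypes (limma adjusted p = 0.000822) and was the single probe set past adjustment, which is 0.0045% of 22206.

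Cfp, on chromosome X from 20925454 to 20931555 (mm10), encodes properdin, the positive regulator of the alternative pathway. Its RefSeq promoter, 250 bases before to 50 after the start, is shown because Cfp is the gene whose difference the list was built around. The capitals mark GAGGAA on either strand, a core that PU.1, the ETS factor of myeloid cells, can bind. It lies on the minus strand of chrX:20931506-20931805 (GRCm38.p6) and is printed 5′ to 3′ as transcribed.
Cfp: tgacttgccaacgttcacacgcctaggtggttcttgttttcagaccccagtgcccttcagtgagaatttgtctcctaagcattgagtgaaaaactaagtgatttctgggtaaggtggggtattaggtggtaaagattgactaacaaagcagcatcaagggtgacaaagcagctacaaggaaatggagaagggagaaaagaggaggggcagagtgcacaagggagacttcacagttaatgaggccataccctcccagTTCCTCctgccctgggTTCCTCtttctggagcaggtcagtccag
It holds 2 matches, with first bases at 7 and 23 after the start, and such a core is found in 28.3% of 32851 promoters of this length, so a match is no sign of binding. The κB motif, read on both strands, was in none of the 5 promoters available for the 9 genes and in 0.411% of all promoters, while TATAAA was in 1 of the 5, that of C3ar1, and in 13.6% of all.

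The log2 signal of Cfp was 11.63 at the lowest, 12.47 at the median and 13.24 at the highest in the wt mice. In the cre mice the lowest was 11.02, the median 11.74 and the highest 12.06. In other words 9 of 10 wt mice lay above each cre mouse, and wt replicate 4 was the exception. This mouse had the highest liver list mean of all mice and the lowest mean of macrophage genes among the wt mice, and the part of either in its Cfp value was not tested. The wt mean was 12.47 ± 0.43 (SD, n = 10) and the cre mean 11.63 ± 0.35 (SD, n = 10), a log2 difference of −0.83 (SE 0.17) or a 1.78-fold lower signal in cre. The cre signal was under the average of the wt group in 10 of 10 mice, as was true of 1.18% of all probe sets. Complete separation was found for 2 probe sets, or 0.00901%: Tnf, and 1 that the annotation does not name.

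In batch 1 the Cfp means were 12.70 ± 0.37 for wt mice and 11.69 ± 0.32 for cre mice (SD, n = 5 each), and in batch 2 they were 12.23 ± 0.38 and 11.58 ± 0.40 (SD, n = 5 each). The difference was therefore −1.01 in the former and −0.65 in the latter. With Adgre1 as a covariate it was −0.77 (SE 0.15) over both batches, −0.82 in batch 1 and −0.64 in batch 2. Properdin is also stored by neutrophils. The mean of 9 measured neutrophil genes was 5.16 to 6.33 in wt and 5.25 to 6.09 in cre mice, with a difference of −0.01 (SE 0.14). At an equal neutrophil mean the Cfp difference was −0.83 (SE 0.17). These neutrophil means all lay below the array medians, 6.49 to 6.58, where signals hold much background. A fit with so low a covariate cannot settle the part of neutrophils in the Cfp difference, which was not tested. The mean of 14 measured macrophage genes differed by −0.39 (SE 0.33), 13 of them lower in cre, and at an equal macrophage mean, taken without Adgre1 and the members, the Cfp difference was −0.69 (SE 0.14). With the liver list mean as a covariate the Cfp difference was −0.73 (SE 0.17), and with the adipocyte list mean it was −0.75 (SE 0.16). Without the 5 mice set apart by other tissues it was −0.87.

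**Figure D1:**
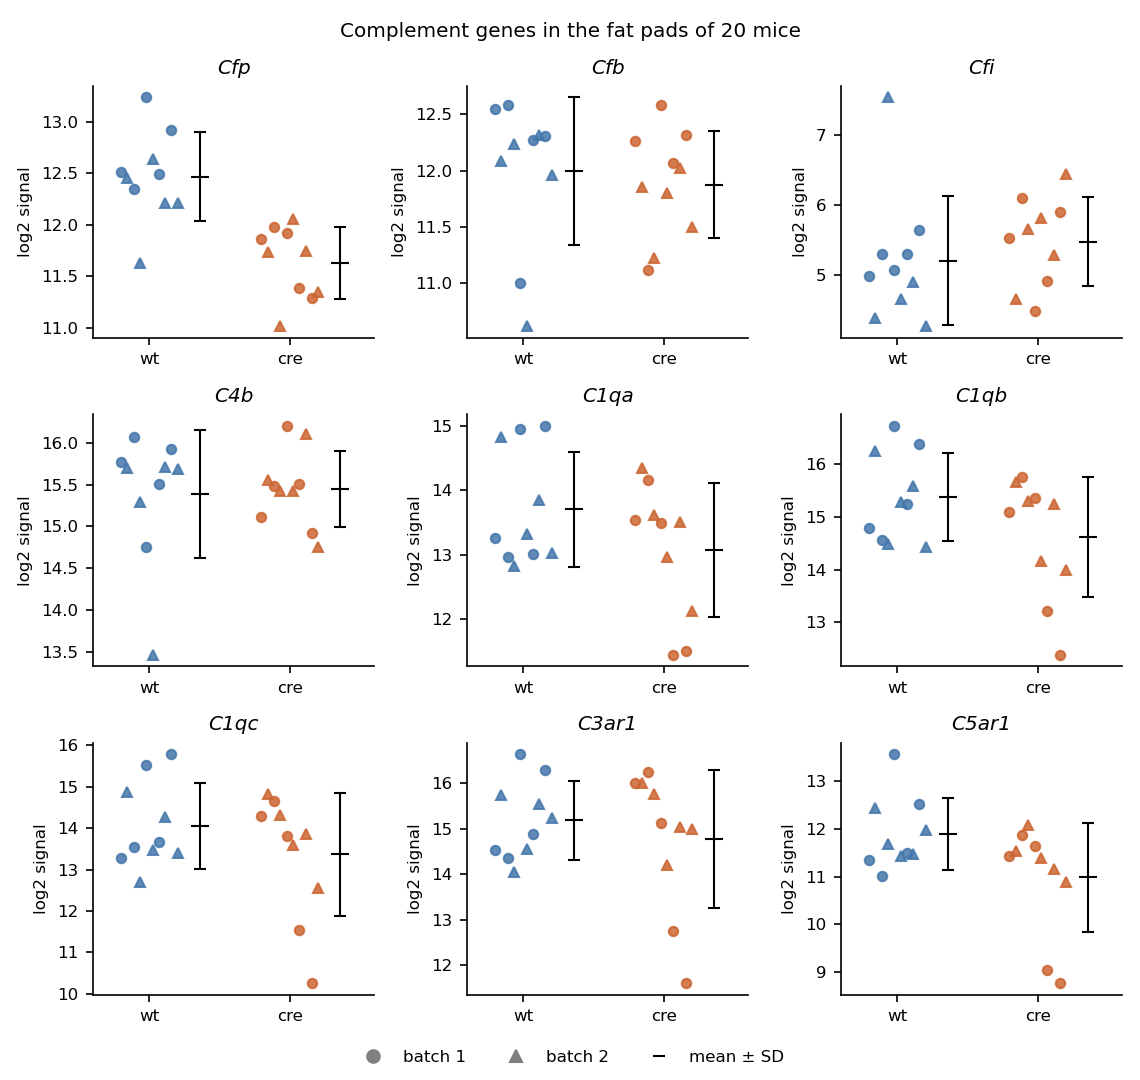
Log2 signal of each of the 9 genes in every mouse, with circles for batch 1, triangles for batch 2 and bars for the mean ± SD of 10 mice. For Cfp 9 of the 10 wt mice lie above all cre mice. For the C1q chains and both receptors cre replicates 7 and 9 are the lowest cre mice. For the chains cre replicate 10 also lies below all wt mice. The vertical scale differs between panels.

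C1q is made of 3 chains whose genes lie side by side on chromosome 4 (mm10), C1qb from 136880126 to 136886200, C1qc from 136889801 to 136892936 and C1qa from 136895916 to 136898844. In macrophages the chains are co-expressed to build the hexameric bundle that binds antibody and apoptotic cells. The promoters of C1qb and C1qc are shown because these chains moved together over the mice. Both are read from the minus strand, from chr4:136886151-136886450 and chr4:136892865-136893164 (GRCm38.p6, RefSeq), and printed 5′ to 3′ with the PU.1-type core GAGGAA of either strand in capitals.
C1qb: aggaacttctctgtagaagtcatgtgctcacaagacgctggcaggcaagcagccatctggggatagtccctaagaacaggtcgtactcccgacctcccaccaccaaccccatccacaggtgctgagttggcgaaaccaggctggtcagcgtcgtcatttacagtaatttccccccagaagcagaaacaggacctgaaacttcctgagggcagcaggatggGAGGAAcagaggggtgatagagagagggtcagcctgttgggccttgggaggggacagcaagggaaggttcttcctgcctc
C1qc: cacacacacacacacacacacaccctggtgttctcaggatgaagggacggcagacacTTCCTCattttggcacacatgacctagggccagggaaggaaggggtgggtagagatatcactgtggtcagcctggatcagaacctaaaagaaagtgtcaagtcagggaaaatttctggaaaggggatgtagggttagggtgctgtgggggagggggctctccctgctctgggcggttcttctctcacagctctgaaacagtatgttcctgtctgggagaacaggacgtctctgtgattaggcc
Each holds 1 match, which begins at −30 in C1qb, on the transcribed orientation, and at −193 in C1qc, on the opposite one. The promoters of C3ar1 and C5ar1, the other available ones, hold 0 matches to this core.

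C1qa had a log2 signal between 12.83 and 15.00 in wt mice, with a median of 13.29, and between 11.45 and 14.35 in cre mice, with a median of 13.50. C1qb lay between 14.44 and 16.73 in wt, with a median of 15.26, and between 12.38 and 15.77 in cre, with a median of 15.17. C1qc ran from 12.70 to 15.79 in wt, with a median of 13.61, and from 10.26 to 14.83 in cre, with a median of 13.83. The groups overlapped in part, with 3 cre mice for C1qa, 4 for C1qb and 3 for C1qc below all wt mice. For each chain 3 wt mice lay above all cre mice. For C1qa and C1qc the cre median was the higher one although the cre mean was the lower one. The low end of the cre group was held by replicates 7 and 9, with 11.45 and 11.51 for C1qa, 13.21 and 12.38 for C1qb and 11.55 and 10.26 for C1qc. These were also the cre mice with the lowest Adgre1 signals, 11.01 and 10.66.

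For C1qa the wt mean was 13.70 ± 0.89 and the cre mean 13.07 ± 1.04 (SD, 10 mice each), a difference of −0.63 (SE 0.40). For C1qb the difference was −0.76 (SE 0.41) and for C1qc −0.68 (SE 0.52). All 3 were larger in batch 1, which holds cre replicates 7 and 9, with −1.01, −1.18 and −1.45 for C1qa, C1qb and C1qc, than in batch 2, with −0.26, −0.33 and 0.08. At equal Adgre1 they were −0.37 (SE 0.19), −0.49 (SE 0.20) and −0.34 (SE 0.24), and at an equal mean of the other macrophage markers −0.13, −0.22 and 0.01. Without cre replicate 9 they were −0.45, −0.50 and −0.33, and when the 5 fat pads with other-tissue RNA, that of replicate 9 among them, were left out, −0.93, −0.87 and −0.89. In whole tissue, fewer macrophages and less of a transcript per macrophage cannot be told apart.

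The receptors followed the same mice. C3ar1, the G protein-coupled receptor for C3a (chromosome 6, 122847140 to 122856157, mm10), lay between 14.04 and 16.64 in wt mice, with a median of 15.07, and between 11.61 and 16.26 in cre mice, with a median of 15.08. Its medians were nearly equal, and the mean difference was −0.41 (SE 0.50), with the lowest values in cre replicate 9 at 11.61 and cre replicate 7 at 12.75. The difference depended on single mice of both genotypes. Without cre replicate 9 it was −0.05, and without the 5 mice set apart −0.62. It was −0.19 without cre replicate 7, −0.22 without wt replicate 5 and −0.26 without wt replicate 9. In batch 1 the C3ar1 difference was −0.99 and in batch 2 it was 0.18. At equal Adgre1 it was −0.07 (SE 0.22), and at an equal mean of the other macrophage markers it had the opposite sign, 0.26 (SE 0.16).

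C5ar1, the receptor for the chemoattractant C5a (chromosome 7, 16246743 to 16259540, mm10), lay between 11.02 and 13.56 in wt mice, with a median of 11.59, and between 8.77 and 12.08 in cre mice, with a median of 11.41. The same 2 cre mice were lowest, with 9.05 in replicate 7 and 8.77 in replicate 9, but 9 of 10 cre mice lay below the wt mean of 11.90. The C5ar1 difference was −0.91 (SE 0.39), with −1.44 in batch 1 and −0.39 in batch 2. At equal Adgre1 it was −0.64 (SE 0.15), with −0.71 and −0.46 in the batches, and at an equal mean of the other macrophage markers −0.41. It was −0.67 without cre replicate 9 and −0.95 without the 5 mice set apart.

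**Figure D2:**
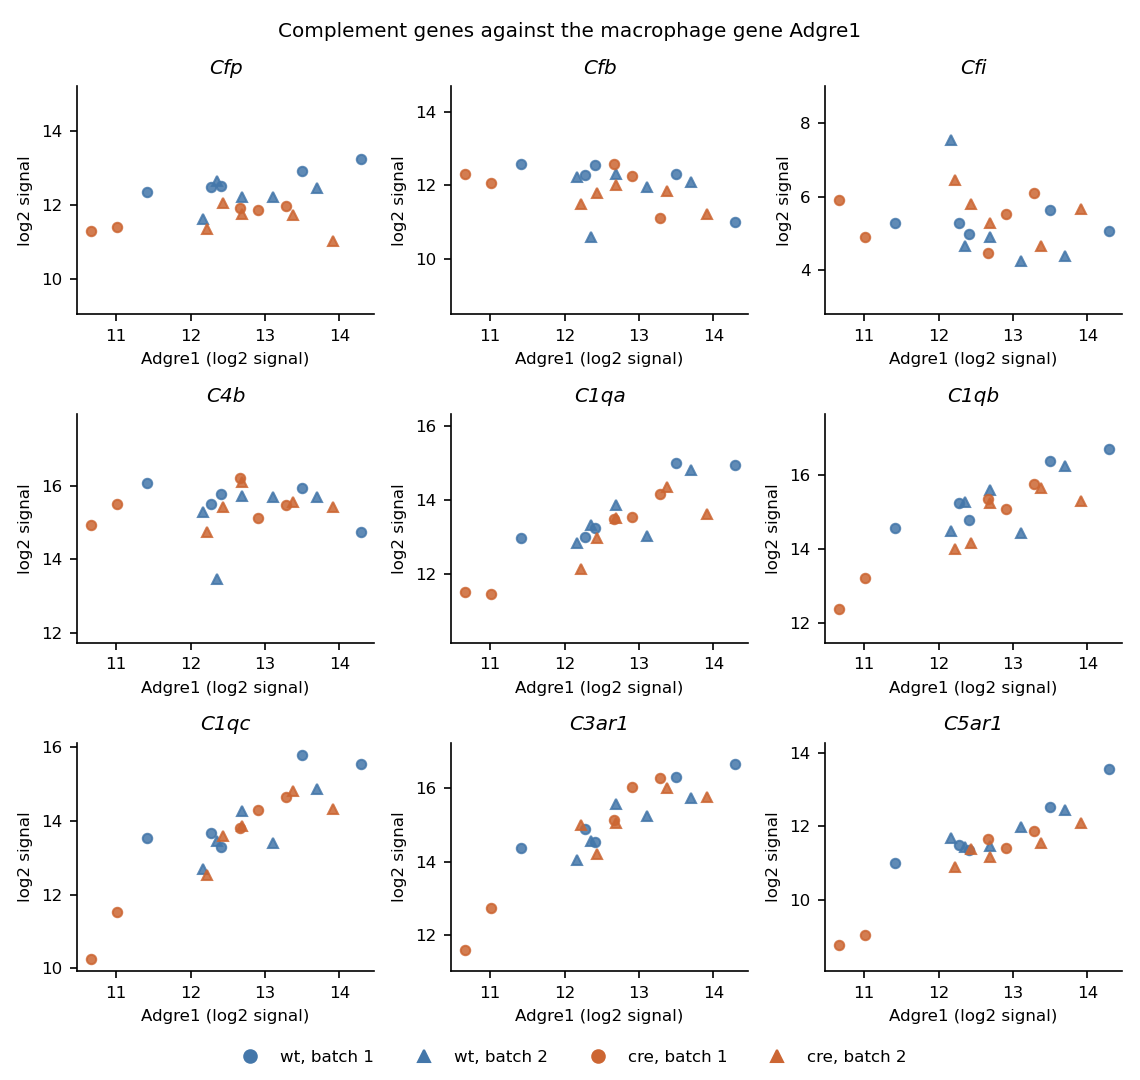
Log2 signal of each of the 9 genes against that of Adgre1 in the same mouse, coloured by genotype and shaped by batch, with each vertical axis spanning the same number of log2 units. C1qa, C1qb, C1qc, C3ar1 and C5ar1 climb with Adgre1 in both genotypes, the cre mice lie mostly below the wt mice for Cfp at a like Adgre1, and the slopes of Cfb, Cfi and C4b did not pass the test.

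The relation to macrophage RNA was tested as a slope on Adgre1, with genotype and batch in the model, by limma with adjustment over 22205 probe sets. Of the 9 genes 5 rose with Adgre1 and 0 fell, where 6.26% of all probe sets had a positive slope past adjustment and 2.57% a negative one, 8.82% in all. C3ar1 rose by 1.23 log2 units per log2 unit of Adgre1 (SE 0.13, limma adjusted p = 1.4e-06) and C5ar1 by 0.99 (SE 0.09, limma adjusted p = 3.2e-07). C1qa rose by 0.95 (SE 0.11), C1qb by 0.98 (SE 0.12) and C1qc by 1.25 (SE 0.14), with limma adjusted p from 3.6e-06 to 6.8e-06. The median slope over the 9 genes was 0.95, against −0.02 over all probe sets tested.

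These 5 slopes passed when any single mouse was left out (largest limma adjusted p = 0.000144), and also without the 5 mice set apart by other tissues, where they lay between 0.86 and 1.01 (limma adjusted p from 0.000102 to 0.00159). In batch 1 alone they ran from 0.96 to 1.33. In batch 2 alone they were 0.93, 0.79, 1.03, 0.88 and 0.59 for C1qa, C1qb, C1qc, C3ar1 and C5ar1, and none passed adjustment there (limma adjusted p from 0.249 to 0.464), where limma called 0 probe sets of the whole array and 1826 had an unadjusted p under 0.05.

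Genes of fibroblasts and progenitors moved with the macrophage genes. The mean of 6 of them was highest in wt replicate 5 and lowest in cre replicate 9, as was the macrophage mean. In slopes on it, run after the values had been seen, C1qb, C1qc, C3ar1 and C5ar1 rose by 1.28 to 1.72 per unit (limma adjusted p from 0.0163 to 0.0322) where 3.23% of all probe sets rose, and C1qa, at 1.14, did not pass (limma adjusted p = 0.0567). None of these slopes passed without wt replicate 5, without cre replicate 9, without the 5 mice set apart or in batch 2 alone, that of C1qb did not pass without cre replicate 1, 3, 4, 5 or 7 either, and that of C1qa passed without wt replicate 2, 3, 8, 9 or 10. Their part in the slopes on Adgre1 was not tested.

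Cfp had a slope of 0.22 per unit of Adgre1 (SE 0.08), which did not pass (limma adjusted p = 0.118). It came past the threshold in batch 1 alone (0.29, limma adjusted p = 0.0318), without cre replicate 4 (0.30, limma adjusted p = 0.0188), with array weights (0.25, limma adjusted p = 0.0408), and with the mean of the other macrophage markers in place of Adgre1 (0.35, limma adjusted p = 0.0295), while in batch 2 the slope was −0.06. The slopes of Cfb (−0.23, SE 0.13), Cfi (−0.18, SE 0.19) and C4b (0.08, SE 0.15) did not pass either (limma adjusted p from 0.313 to 0.808).

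Whether the slopes differed between genotypes was tested by an interaction term. C1qc had a slope of 0.96 in wt and 1.44 in cre mice, and C3ar1 of 0.91 and 1.48. In limma 0 of the 9 slope differences passed adjustment (adjusted p = 0.995 for each), 1 of them, that of C3ar1, had an unadjusted p under 0.05, and over the array 0 of 22205 passed with 3.96% under an unadjusted p of 0.05.

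**Figure D3:**
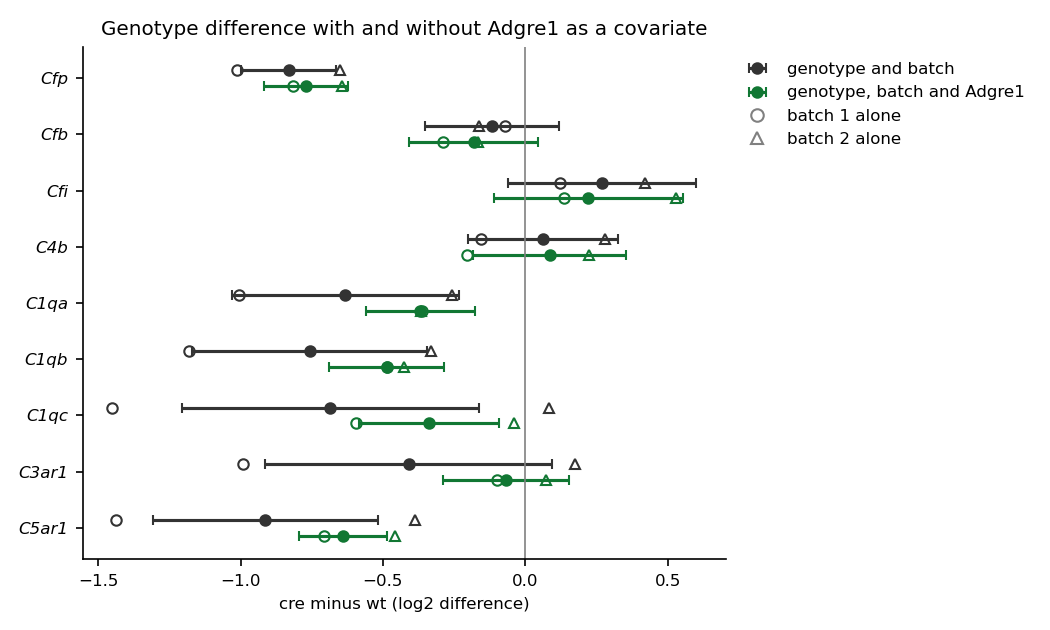
Log2 difference, cre minus wt, of each of the 9 genes from the model with genotype and batch (black) and from the model with Adgre1 added (green), with bars of 1 SE and open symbols for each batch alone. Cfp lies at −0.83 and −0.77 in the models, the C1q chains move towards 0 with Adgre1 in the model, and C3ar1 lies at −0.07.

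Among the 9 genes 7 had a lower mean in cre, where 49.3% of all probe sets had one, and at equal Adgre1 again 7, where 49.7% had one. The median difference over the 9 genes was −0.63 without and −0.34 with Adgre1, against 0.00 over all probe sets in both models. At equal Adgre1 2 probe sets of the array, Tnf and Lyz2, whose locus drives Cre in the cre mice, passed limma's adjustment (0.00901%). Since the list was built with this contrast in view, nothing is read from these counts.

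C4b and Cfb belong to the class III region of the major histocompatibility complex on chromosome 17 (mm10), C4b from 34728139 to 34743902 and Cfb from 34856374 to 34862514. The floxed Tnf gene lies on the same chromosome from 35199367 to 35202007, and it was floxed in both genotypes. C4 is shared by the classical and lectin pathways. C4b lay between 13.47 and 16.06 in wt mice, with a median of 15.69, and between 14.75 and 16.20 in cre mice, with a median of 15.46. The groups overlapped but for wt replicate 6 below all cre mice and 2 cre mice above all wt mice, the difference was 0.06 (SE 0.26), and the lowest wt values were those of replicates 6 and 5, at 13.47 and 14.75. Without wt replicate 6 the difference was −0.15. C4a, the neighbouring gene from 34809092 to 34823460, is a near-identical copy, so the annotation cannot show how far the probes of each read the other.

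Cfb lay between 10.61 and 12.59 in wt mice, with a median of 12.25, and between 11.11 and 12.58 in cre mice, with a median of 11.94. Apart from the 2 lowest wt mice its groups overlapped. The difference was −0.12 (SE 0.24), and by leaving out single mice it ran from −0.26 (wt replicate 6) to −0.01 (cre replicate 3). Its lowest values in wt were those of replicates 6 and 5, at 10.61 and 11.00. At equal Adgre1 the difference was −0.18 (SE 0.22) for Cfb and 0.09 (SE 0.27) for C4b. After the values had been seen, both genes were set against the mean of 10 adipocyte genes. Cfb rose by 0.69 per unit of that mean (SE 0.12, limma adjusted p = 0.000428) and C4b by 0.62 (SE 0.16, limma adjusted p = 0.0183), where 4.48% of all probe sets rose. For Cfb the slope was 0.62 to 0.72 without any single mouse and 0.66 (limma adjusted p = 0.0345) without the 5 mice set apart. No fit left out both wt replicates 5 and 6, the lowest mice for the adipocyte mean and for Cfb, so the Cfb slope without both is not known. For C4b the slope was 0.26 without wt replicate 6 (limma adjusted p = 0.5) and 0.39 without the 5 mice (limma adjusted p = 0.355), so the C4b slope rested on the fat pad of wt replicate 6, whose seminal vesicle RNA was the highest of all.

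Cfi, on chromosome 3 from 129836727 to 129875332 (mm10), encodes the protease that inactivates C3b and C4b with the help of cofactors, and its main source is the liver. It had a low signal, at percentile 34.1 of the values on the median array. It lay between 4.27 and 7.54 in wt mice, with a median of 5.04, and between 4.48 and 6.44 in cre mice, with a median of 5.59. The highest Cfi value was that of wt replicate 4, which had the highest albumin signal too, with 18.9 for Alb where the other wt mice had 7.85 to 17.2. The Cfi difference was 0.27 (SE 0.33), and it was 0.54 without wt replicate 4 and 0.16 to 0.17 without wt replicate 2, wt replicate 10 or cre replicate 10. Apart from wt replicate 4 at the top and the lowest wt mice the groups overlapped.

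Set against the mean of 13 liver genes, again after the values had been seen, Cfi rose by 0.34 per unit (SE 0.05, limma adjusted p = 5.0e-05), where 0.995% of all probe sets rose. At an equal liver mean the genotype difference of Cfi was −0.17 (SE 0.19), the opposite sign to that without it. Without wt replicate 4 the slope was 0.27 (limma adjusted p = 0.0443), in batch 1 alone 0.26 (limma adjusted p = 0.69), and without the 5 mice set apart 0.27 (limma adjusted p = 0.213). The liver list itself differed by 1.29 between genotypes (SE 0.93), higher in cre. None of the other 8 genes had a slope on the liver list past adjustment (limma adjusted p from 0.915 to 1.00).

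**Figure D4:**
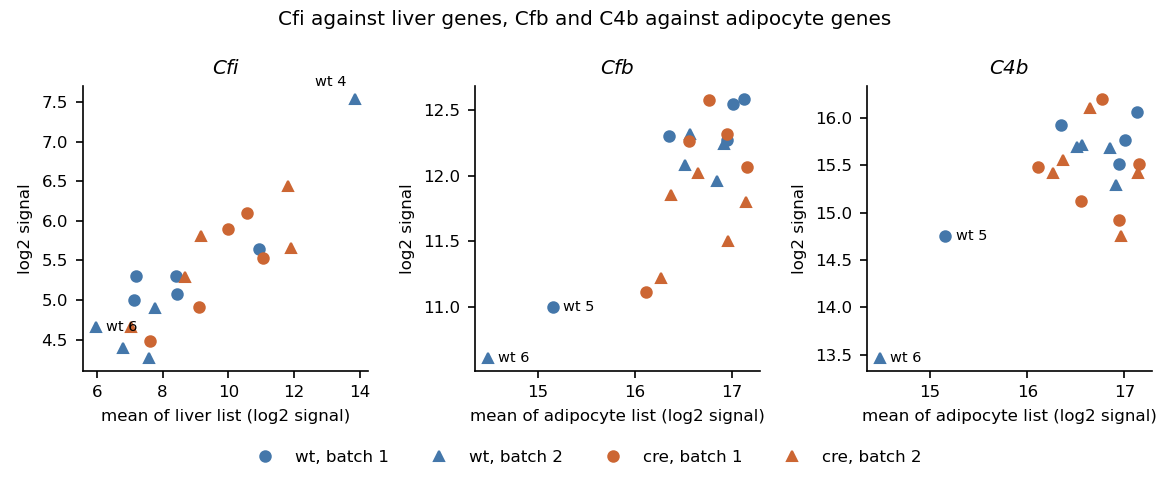
Log2 signal of Cfi against the mean of 13 liver genes, and of Cfb and C4b against the mean of 10 adipocyte genes, in each of the 20 mice. Cfi climbs with the liver mean up to wt replicate 4, and for Cfb and C4b the low end is held by wt replicates 5 and 6.

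Batch was compared in the same way. None of the 9 genes differed between batches (0 past adjustment and 0 at an unadjusted p under 0.05 by limma), with log2 differences, batch 2 minus batch 1, from −0.34 for Cfb to 0.33 for C5ar1. Over the array limma called 0 probe sets for batch, and 127 of 22206, or 0.572%, had an unadjusted p under 0.05, fewer than the threshold itself would give. Whether the deposited values had been adjusted for batch is not given in the sources used here, and such a step would also leave small batch differences. Its part in this result was not tested. For the interaction of genotype and batch 0 of the 9 genes passed (0 at an unadjusted p under 0.05), with the highest value, 1.54 (SE 1.01, limma adjusted p = 0.765), for C1qc. There 0 probe sets of the array passed and 7.41% had an unadjusted p under 0.05. The genotype differences of C1q and the receptors in batches 1 and 2 are therefore not shown to differ.

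Over the 20 mice, with genotype and batch means removed, the C1q chains correlated with each other at 0.95 to 0.96 and with C3ar1 and C5ar1 at 0.85 to 0.94. These are descriptions of points that share the array and the macrophage RNA of each fat pad. Cfp correlated with the chains at 0.62 to 0.64, and with Cfb at −0.39. C4b correlated with Cfb at 0.73, with wt replicate 6 the lowest mouse for both, and the correlation without that mouse was not run. The genes most like each one, by Pearson r over 20 mice, were Cfl1, Akr1b10 and Kif20b for Cfp (0.82 to 0.83), Ly86, Cxcl16 and Tlr1 for C1qa (0.95 to 0.96), Blnk, Tlr1 and Ly86 for C1qb (0.96 each) and Fcgr3, Lgmn and Arhgap25 for C1qc (0.95 to 0.97). For C3ar1 they were Lcp1, Gpr137b and Lgmn (0.97 to 0.98), and for C5ar1 Pirb, Ptafr and Cd44 (0.96 to 0.97). C4b was nearest to its copy C4a (0.95), followed by Pdgfc (0.85) and Ltbp3 (0.84). Cfb was nearest to Apmap, Ebf3 and Ndufab1 (each 0.89), and Cfi to Rdh7, Cyp2d10 and Nat8f2 (0.91 to 0.92). Correlations of Cfp with its nearest genes were thus the lowest among the 9.

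Of 50 other genes of the system 45 were measured, and 5 alternative pathway genes, C3 and Cfd among them, were not analysed here. By limma 0 of the 45 passed adjustment for genotype in either direction (adjusted p from 0.789 to 0.984), and 25 were lower and 20 higher in cre, with a median difference of −0.06. The second C5a receptor gene, C5ar2, had the only unadjusted p under 0.05, with a difference of −0.57 (SE 0.27) that failed adjustment (limma adjusted p = 0.789), with a wt mean of 7.03 ± 0.63 and a cre mean of 6.46 ± 0.65 (SD, 10 mice each). Among the 10 receptor genes 9 had a lower mean in cre, among the 14 regulators 9, among the 13 genes of the classical and lectin pathways 4, and among the 7 terminal pathway genes 3. Over all probe sets 49.3% were lower in cre and 6.29% had an unadjusted p under 0.05, so the share of the 45 that were lower is near that of the array.

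The slope on Adgre1 passed adjustment for 13 of the 45, all positive, against 6.26% of all probe sets. Of the receptor genes 8 of 10 rose with Adgre1, among them C5ar2 by 0.48 (SE 0.12), Itgam, the alpha chain of complement receptor CR3, by 0.57 (SE 0.11), Lrp1, an endocytic receptor, by 0.50 (SE 0.09) and Calr, which binds the collagen-like tails of C1q, by 0.34 (SE 0.09). In the classical and lectin group 3 of 13 rose. C1ra and C1s1, the proteases that sit on C1q, rose by 0.60 (SE 0.11) and 0.47 (SE 0.10), while C4a did not pass (0.15, SE 0.19). Of the regulators 1 of 14 rose, Serping1, the C1 inhibitor, by 0.54 (SE 0.12), and Cd59a and Clu, inhibitors of the membrane attack complex, did not pass (−0.08 and −0.40). Of the terminal pathway 1 of 7 rose, C7 by 1.07 (SE 0.32, limma adjusted p = 0.0396), while C6 and C8g did not pass (0.21 and −0.04). The 1 measured gene of the alternative pathway group, Cfhr2, did not pass either (0.23, SE 0.27).

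**Figure D5:**
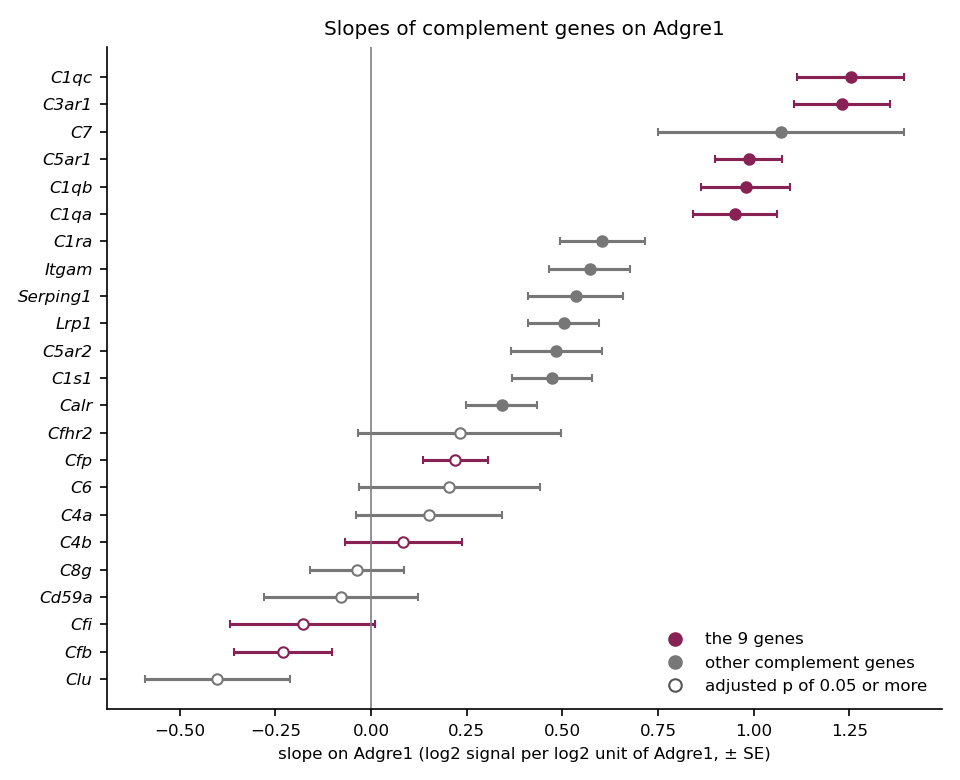
Slope on Adgre1, in log2 units of signal per log2 unit of Adgre1 with bars of 1 SE, for the 9 genes and for the named ones of the 45 other complement genes, with open symbols where the limma adjusted p was 0.05 or more. The C1q chains and both anaphylatoxin receptors lie between 0.95 and 1.25, Cfp lies at 0.22, and Cfi and Cfb lie below 0 without passing the test.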

How the data were processed

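Per the labels' protocols, total RNA of whole epididymal fat pads was isolated, amplified and biotinylated for arrays. The authors deposited log2 signals of 22206 probe sets for 20 arrays. The values were made by RMA in the Transcriptome Analysis Console, version 4.0.2.15, with build mm10, as the submitters' processing notes list. For background settings and any batch adjustment the sources used here give nothing, and RMA usually makes arrays alike, so a shift shared by most genes would be lost. Groups, batches and replicate numbers came from the titles.

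Gene symbols came from the platform annotation (19572 with 1 symbol, 2634 unnamed here), and coordinates and promoters came from RefSeq, with promoters for 5 of the 9 genes. Where a gene had several probe sets, the one with the highest mean stood for it. limma 3.58.1 in R 4.3.3 (lmFit, eBayes) was fitted to all probe sets with Benjamini-Hochberg adjustment at 0.05, with genotype and batch, and with Adgre1 as a further term, without its own probe set. The procedure was tested on simulated data. Members and gene lists were chosen with earlier results of these data known. Named were the 9 genes, Adgre1, Tnf and Lyz2, the 3 genes with the highest mean in each of 5 complement groups, those with an unadjusted p under 0.05, and the 3 nearest genes of each member. Alb and C4a as neighbours of a result, and the slopes on liver, adipocyte and fibroblast lists, were added after the values were seen. Figures were drawn with matplotlib 3.10.9.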

Additional observations from a re-analysis of the deposited data

Results flagged for a closer look

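In 26 groups of 10 mice, 2 single values stood apart from the rest by Dixon's criterion, and chance flags about 1 in 20 groups. Cfi in wt replicate 4 was 7.54, with the next wt mouse at 5.65, and this mouse had the highest liver list mean, 13.9. C4b in wt replicate 6 was 13.47, with the next wt mouse at 14.75, and this mouse had the lowest adipocyte list mean, 14.5, and a seminal vesicle list mean of 16.9. The part of these lists in the Cfi and C4b values was not tested beyond the slopes given for them.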

How the results depend on the processing

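The difference of Cfp kept its direction in all alternatives run, from −1.01 to −0.65 over the settings and from −0.91 to −0.76 without single mice. Since Cfp was listed for its small p in this contrast on these same arrays, the kept direction is no independent support for it. At equal Adgre1 it lay between −0.82 and −0.64 over the settings and between −0.84 and −0.65 without single mice. The 1 probe set past adjustment for genotype, Tnf, became 0 by limma in batch 1 alone (1603 at an unadjusted p under 0.05), in batch 2 alone (1001) and with the replicate number as a block (1293), and the count was 1 to 2 without single mice, with 2 only without wt replicate 4. At equal Adgre1 the 2 probe sets became 0 by limma in batch 1 alone (1736 at an unadjusted p under 0.05) and in batch 2 alone (1043), and were 2 to 3 without single mice. The 1959 slopes on Adgre1 past adjustment became 0 by limma in batch 2 alone (1826 at an unadjusted p under 0.05) and 736 with the replicate block, and lay between 1026 (without wt replicate 5) and 2703 (without wt replicate 6), with 1268 without cre replicate 9. With the block the slopes of the C1q chains, C3ar1 and C5ar1 passed (0.89 to 1.33, limma adjusted p from 0.00044 to 0.0011), and the Cfp difference was −0.83. The numbers were not taken as pairs, since same-numbered mice correlated above 0.1 in 4 of 10 pairs. Averaging several probe sets could not be run, since each of the 9 genes had 1. The cause of lost calls was not tested, though a single batch holds 10 mice. The number of mice limits all values, and low signals such as that of Cfi hold background.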
